A study of Mus musculus with 12 samples.

Results

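The complement system of macrophages was followed through 9 genes, chosen by symbol from the 23997 genes listed in every library: the subunits C1qa, C1qb and C1qc, the central component C3, the alternative pathway genes Cfb and Cfp, the inhibitor Serping1, and the receptors C3ar1 and C5ar1. RNA-seq was performed on bone marrow-derived macrophages (BMDMs) from wild-type (WT) and Pim1-/- mice, untreated or after lipopolysaccharide (LPS), with 12 libraries and 3 in each of 4 groups. The study asked what the kinase Pim1 does in the response of macrophages to Toll-like receptor ligands, and LPS is the ligand of TLR4. In all 4 groups the cells came from male C57BL/6 mice aged 8 to 10 weeks, and the marrow cells that did not adhere were grown with recombinant human macrophage colony-stimulating factor at 10 ng/ml for 7 days. The LPS-treated WT and Pim1-/- groups received 100 ng/ml for 4 h. The Pim1-/- mice carried a CRISPR/Cas9 deletion of Pim1 exons I to V in the germline, so every cell of the animal lacked it and a cell-restricted effect could not be separated. Neither the labels nor the methods say whether the 3 replicates of a group came from separate mice or cultures, and the p-values measure only the spread between these libraries, which may be technical.

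Complement is a cascade of plasma and local proteins that tags microbes and dying cells. In the classical pathway C1q binds the target and starts the cascade, in the alternative pathway factor B and properdin build and steady the enzyme that splits C3, and the fragments C3a and C5a call and activate leukocytes through their receptors. Most plasma components are made by the liver, while C1q and properdin come mainly from myeloid cells, and macrophages are a known local source of C3 and factor B.

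Values are FPKM, fragments per kilobase of transcript relative to the mapped fragments of the library, so levels of different genes are compared per length. The FPKM values of a library summed to between 452511 and 489710 in untreated cells and to between 713307 and 849323 after LPS, and the value that 1 fragment adds was 1.176 to 1.805 after LPS and 0.823 to 1 in untreated cells, relative to the first untreated WT library. Each comparison of LPS with untreated cells therefore rests on the scaling of the deposited values. So does the genotype comparison after LPS, where the sums were 713307 to 743912 in Pim1-/- and 837585 to 849323 in WT libraries. All comparisons were repeated under 3 other scalings. Pim1 itself measured 22.9 FPKM ± 1.80 (SD, n = 3) in untreated WT and 8.74 ± 0.752 in untreated Pim1-/- BMDMs, and 645 ± 17.8 against 219 ± 15.6 after LPS. The genotypes did not overlap, and the values do not show which exons gave the reads left in Pim1-/- cells. All 10 macrophage markers reached 1 FPKM, so the labelled cell type carried its defining markers.

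In Pim1-/- BMDMs the 3 C1q genes and C3 were lower than in WT cells both without treatment and after LPS, and Cfb was lower after LPS. In untreated cells 4 of the 9 genes were called lower and none higher, and after LPS 5 were called lower and none higher. The fit by limma on log2(FPKM + 1) covered the 10581 genes that reached 1 FPKM in 3 or more libraries, and a gene was called when it differed more than 2-fold, at p under 0.05, and when its FDR after Benjamini-Hochberg adjustment was under 0.1. Over all genes tested, 3.37% were called lower and 4.4% higher without treatment, and 5.15% lower and 3.51% higher after LPS. In both comparisons every Pim1-/- library was below every WT library for 9 of 9 genes, an arrangement that 44.2% of all genes tested showed without treatment and 41.8% after LPS. The median log2 difference of the 9 genes was -0.59 without treatment and -1.26 after LPS, beside -0.05 and -0.03 over all genes tested. All 9 genes passed the filter on low values, but Serping1 passed it only through the 3 LPS-treated WT libraries, the group in which it was highest. Cfb passed it only through the LPS-treated libraries of both genotypes. The counts are therefore descriptions.

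**Figure D1:**
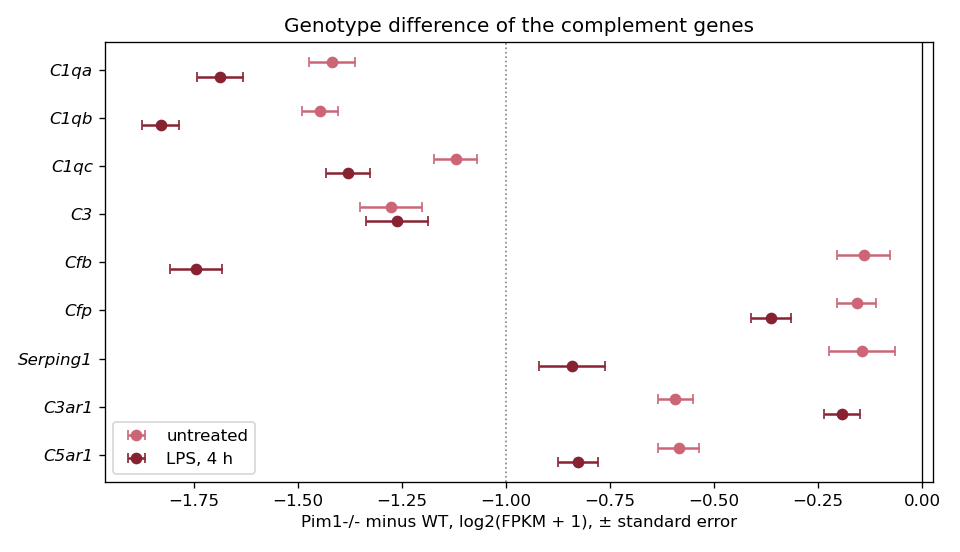
Log2 difference between Pim1-/- and WT BMDMs on the log2(FPKM + 1) scale for the 9 complement genes, untreated (light) and after LPS (dark), with bars of 1 standard error from limma and a dotted line at 2-fold lower. C1qa, C1qb, C1qc and C3 lie beyond the line in both conditions, Cfb lies beyond it only after LPS (-1.75 against -0.14), and Cfp, Serping1, C3ar1 and C5ar1 lie between the line and 0. The untreated Cfb value is shrunk by the added 1 FPKM and was -0.83 with 0.1 FPKM added.

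C1qa, C1qb and C1qc encode the chains that together form C1q, the recognition molecule of the classical pathway. The 3 genes lie side by side on the minus strand of chromosome 4 within 18675 bases (GRCm38, GENCODE M21), C1qb at chr4:136880129-136886187, C1qc at chr4:136889804-136893065 and C1qa at chr4:136895917-136898803. In untreated WT cells C1qb measured 1851, 1931 and 1877 FPKM, the highest level of the 9 genes, and in untreated Pim1-/- cells 689.5, 666 and 719 FPKM. Each Pim1-/- library held less than any WT library, and the Pim1-/- mean was 36.7% of the WT mean. After LPS the C1qb values were 2764, 2557 and 2715 FPKM in WT and 774, 735.5 and 747 FPKM in Pim1-/- cells, a mean 3.56 times lower. The log2 differences were -1.45 (SE 0.044, FDR = 1.9e-13) and -1.83 (SE 0.044, FDR = 2.1e-14) by limma.

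The A and C chains were also lower in Pim1-/- cells. C1qc measured 1287, 1340 and 1305 FPKM in untreated WT and 600.3, 572.9 and 634.6 FPKM in untreated Pim1-/- cells, and after LPS 1644, 1494 and 1598 FPKM against 639, 606 and 573 FPKM. C1qa measured 286.5, 306 and 301 FPKM in untreated WT and 109, 104 and 120.2 FPKM in untreated Pim1-/- cells, and after LPS 359.5, 348 and 365 FPKM against 119, 107 and 106 FPKM. The genotypes were far apart in each condition: the Pim1-/- mean was 37.3% (untreated) and 30.9% (LPS) of WT for C1qa, and 46.0% and 38.4% for C1qc. The log2 differences of C1qa were -1.42 (SE 0.056, FDR = 4.1e-12) and -1.69 (SE 0.056, FDR = 6.3e-13), and those of C1qc were -1.12 (SE 0.052, FDR = 3.0e-11) and -1.38 (SE 0.052, FDR = 2.7e-12). In bulk RNA, fewer cells of a type and less RNA per cell cannot be told apart.

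The chains did not differ by the same factor. C1qc stood at 69.4% to 69.5% of C1qb in the untreated WT libraries and at 86.0% to 88.2% in the untreated Pim1-/- libraries, and after LPS at 58.4% to 59.5% in WT and 76.7% to 82.6% in Pim1-/- libraries. The ranges of the genotypes were separate in both conditions, with C1qc higher relative to C1qb in Pim1-/- cells. C1qa stood at 15.48% to 16.01% of C1qb in untreated WT and 15.6% to 16.7% in untreated Pim1-/- libraries, ranges that overlap, and at 13.01% to 13.6% against 14.2% to 15.3% after LPS. These ratios lie within a library and are free of its scaling, and the differences between them were not tested.

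Some markers of the macrophage itself were also lower in Pim1-/- cells. Of 10 macrophage markers, 10 had lower estimates in Pim1-/- cells in both conditions and 3 were called, with a median log2 difference of -0.75 without treatment and -0.86 after LPS. Of the 10581 genes tested, 5866 had lower estimates without treatment and 5581 after LPS, and 3.37% and 5.15% were called lower. The summed level of the list, most of which is lysozyme (Lyz2), was 29131 to 31184 FPKM in untreated WT and 15151 to 16118 FPKM in untreated Pim1-/- libraries, and 32200 to 32749 against 17033 to 18901 FPKM after LPS. Csf1r, the receptor for macrophage colony-stimulating factor, differed by -1.59 and -1.32, and Mertk, a receptor for the uptake of dying cells, by -1.57 and -1.75, while Emr1, which encodes F4/80, differed by -0.80 and -0.72 and was not called. The smallest differences were those of Cd14 (-0.06, FDR = 0.22, and -0.13) and Cd68 (-0.28 and -0.20). Of 12 cell cycle genes, 12 were called higher in untreated Pim1-/- cells (median log2 difference 3.39) and 10 after LPS (2.75). The shares called higher over all genes tested were 4.4% and 3.51%. The part of either marker list in the C1q result was not tested.

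C3, whose cleavage is the step on which all pathways meet, was low in untreated cells and high after LPS. It lies on the minus strand at chr17:57203970-57228136, where the microRNA gene Mir6978 overlaps it on the same strand. Untreated WT cells held 2.32, 3.01 and 3.11 FPKM and untreated Pim1-/- cells 0.515, 0.657 and 0.534 FPKM. After LPS the WT libraries held 275, 276 and 269.8 FPKM and the Pim1-/- libraries 112, 105 and 124 FPKM. The genotypes were apart in both conditions, with the Pim1-/- mean at 20.2% of WT without treatment and at 41.6% after LPS. The log2 differences were -1.28 (SE 0.075, FDR = 5.5e-10) and -1.26 (SE 0.075, FDR = 5.3e-10) by limma. The added 1 FPKM shrinks the untreated difference, which was -2.12 with 0.1 FPKM added, and the difference after LPS was -0.96 under quantile normalization, short of 2-fold.

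C1qb had the highest level of the 9 genes, C3 went from a low to a high level with LPS, and Cfp, described below with Cfb, kept its level within a narrow range. The 250 bases before the RefSeq start of each are shown for comparison (RefSeq on GRCm38.p6, minus strand, written 5′ to 3′), C1qb at chr4:136886201-136886450, C3 at chr17:57228137-57228386 and Cfp at chrX:20931556-20931805. Capitals mark letters that match 1 of 6 motifs searched on both strands: GAGGAA (the core bound by PU.1), GGGA and CC separated by any 4 bases (NF-kappaB), TTGCGNAA (C/EBP), TTCNNNGAA (the gamma-activated site), GAAA repeated after any 2 bases (the interferon-stimulated element) and TATAAA (the TATA box).
C1qb: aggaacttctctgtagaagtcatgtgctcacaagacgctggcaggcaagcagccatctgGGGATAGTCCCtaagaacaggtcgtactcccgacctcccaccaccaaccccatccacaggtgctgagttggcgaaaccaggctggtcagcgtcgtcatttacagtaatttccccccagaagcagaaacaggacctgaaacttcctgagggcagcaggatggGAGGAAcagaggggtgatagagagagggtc
C3: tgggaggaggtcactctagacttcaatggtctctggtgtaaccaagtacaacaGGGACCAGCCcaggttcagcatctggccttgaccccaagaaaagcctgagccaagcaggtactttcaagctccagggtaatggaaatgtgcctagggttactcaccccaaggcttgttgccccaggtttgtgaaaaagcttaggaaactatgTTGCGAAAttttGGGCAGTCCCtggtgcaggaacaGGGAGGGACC
Cfp: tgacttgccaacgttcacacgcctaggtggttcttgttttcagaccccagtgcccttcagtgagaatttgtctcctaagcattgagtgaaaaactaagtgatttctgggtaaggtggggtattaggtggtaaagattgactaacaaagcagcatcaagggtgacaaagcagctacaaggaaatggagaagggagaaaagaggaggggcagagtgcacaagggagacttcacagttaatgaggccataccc
The C1qb window holds a PU.1 core at 30 to 25 bases before the start and an NF-kappaB motif that matches on both strands in overlapping frames, at 191 to 182 and 190 to 181. The C3 window holds 3 NF-kappaB motifs, at 197 to 188, 33 to 24 and 10 to 1 bases before the start, and a C/EBP motif at 45 to 38, and the Cfp window holds none of the 6. Of 32851 RefSeq promoters of the same length, 23.3% hold the PU.1 core, 17.6% the NF-kappaB, 0.67% the C/EBP, 7.02% the gamma-activated site, 2.98% the interferon-stimulated element and 12.4% the TATA motif. Among the other members with a promoter entry, C1qc held a PU.1 core and an NF-kappaB motif and C3ar1 a TATA motif. Of the C1qc window, 151 bases lie in an annotated untranslated region. The C1qc NF-kappaB match, at 40 to 31 bases before the start, falls in that region. C5ar1, which was called higher with LPS in both genotypes as deposited, held none of the 6, so no link of motif and response is read. These are matches of letters, not sites of binding, and the motifs were chosen after the values were seen.

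Cfb, complement factor B, supplies the protease of the alternative pathway enzyme that splits C3. Cfb lies at chr17:34856374-34862518, where the protein-coding gene Gm20547 (chr17:34856412-34882042) and the microRNA gene Mir6972 overlap it on the same strand, so the division of reads between them is uncertain. After LPS the WT libraries held 65.0, 64.2 and 63.3 FPKM and the Pim1-/- libraries 19.1, 17.4 and 18.8 FPKM. The groups did not overlap, the WT mean was 3.48 times the Pim1-/- mean, and the log2 difference was -1.75 (SE 0.063, FDR = 1.6e-12) by limma. Untreated cells held very little: 0.0311, 0.242 and 0.107 FPKM in WT, and 0, 0.0293 and 0.0267 FPKM in Pim1-/- libraries, which correspond to 40 fragments in the 3 WT and 6 in the 3 Pim1-/- libraries. The untreated difference was -0.14 (FDR = 0.054) by limma with 1 FPKM added, which shrinks it, and -0.83 with 0.1 FPKM added, both short of 2-fold. By the ratio of means untreated Pim1-/- cells held 14.7% of WT, but at that depth the WT libraries themselves ran from 3 to 25 fragments. The lower Cfb is therefore not read as particular to LPS.

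Cfp encodes properdin, which steadies the alternative pathway enzyme, and lies at chrX:20925454-20931555. Its group means differed by the smallest ratio among the 9 genes: 105, 114 and 112 FPKM in untreated WT, 97.0, 95.2 and 105 FPKM in untreated Pim1-/-, 124, 125 and 131 FPKM in LPS-treated WT and 102, 97.2 and 95.3 FPKM in LPS-treated Pim1-/- libraries. The Pim1-/- mean was 89.6% of WT without treatment and 77.6% after LPS. As deposited, the log2 differences, -0.16 (SE 0.047, FDR = 0.0070) and -0.36 (SE 0.047, FDR = 4.2e-06) by limma, were larger than the spread between replicates and far short of 2-fold. Their size depended on the scaling: they were -0.10 (FDR = 0.076) and -0.16 with every library scaled to the same sum. Under quantile normalization the difference after LPS was -0.08 (FDR = 0.17).

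Serping1 encodes C1 inhibitor, which inactivates the proteases that travel with C1q, and lies at chr2:84765387-84775444. After LPS it was the least expressed of the 9: 0.146, 0.122 and 0.126 FPKM in untreated WT, 0.0134, 0.0153 and 0.0418 FPKM in untreated Pim1-/-, 1.025, 1.62 and 1.23 FPKM in LPS-treated WT and 0.343, 0.194 and 0.2805 FPKM in LPS-treated Pim1-/- libraries. The genotypes did not overlap, and the values correspond to 26 and 5 fragments in the 3 untreated libraries of WT and Pim1-/-, and to 140 and 39 after LPS. The log2 difference was -0.14 (FDR = 0.11) without treatment and -0.84 (SE 0.079, FDR = 1.0e-07) after LPS, neither a call. With 0.1 FPKM added in place of 1 the difference after LPS was -1.90, and under quantile normalization -1.05, both calls. Serping1 passed the filter on low values only through the 3 LPS-treated WT libraries, where it was highest. Its genotype and LPS differences are therefore descriptions, and no support is drawn from their FDR or calls.

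The receptors C3ar1 and C5ar1 bind the C3a and C5a fragments and are carried by macrophages. C5ar1 (chr7:16246743-16259540) measured 51.4, 48.7 and 53.9 FPKM in untreated WT and 32.6, 33.4 and 35.5 FPKM in untreated Pim1-/- cells, and after LPS 176, 173 and 173 FPKM against 92.8, 97.1 and 103 FPKM. The Pim1-/- mean was 66.0% of WT without treatment and 56.2% after LPS, and the log2 differences of -0.59 (SE 0.049, FDR = 3.3e-08) and -0.83 (SE 0.049, FDR = 4.6e-10) did not reach 2-fold. C3ar1 (chr6:122847138-122856161) measured 197, 205 and 202 FPKM in untreated WT and 132, 136 and 131 FPKM in untreated Pim1-/- cells, and after LPS 189, 189 and 180.1 FPKM against 166.5, 168 and 153 FPKM. Its genotype difference was -0.59 (SE 0.043, FDR = 6.2e-09) without treatment and -0.19 (SE 0.043, FDR = 7.1e-04) after LPS. The direction after LPS depended on the scaling: the estimate was 0.01 with every library scaled to the same sum and 0.06 under quantile normalization.

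**Figure D2:**
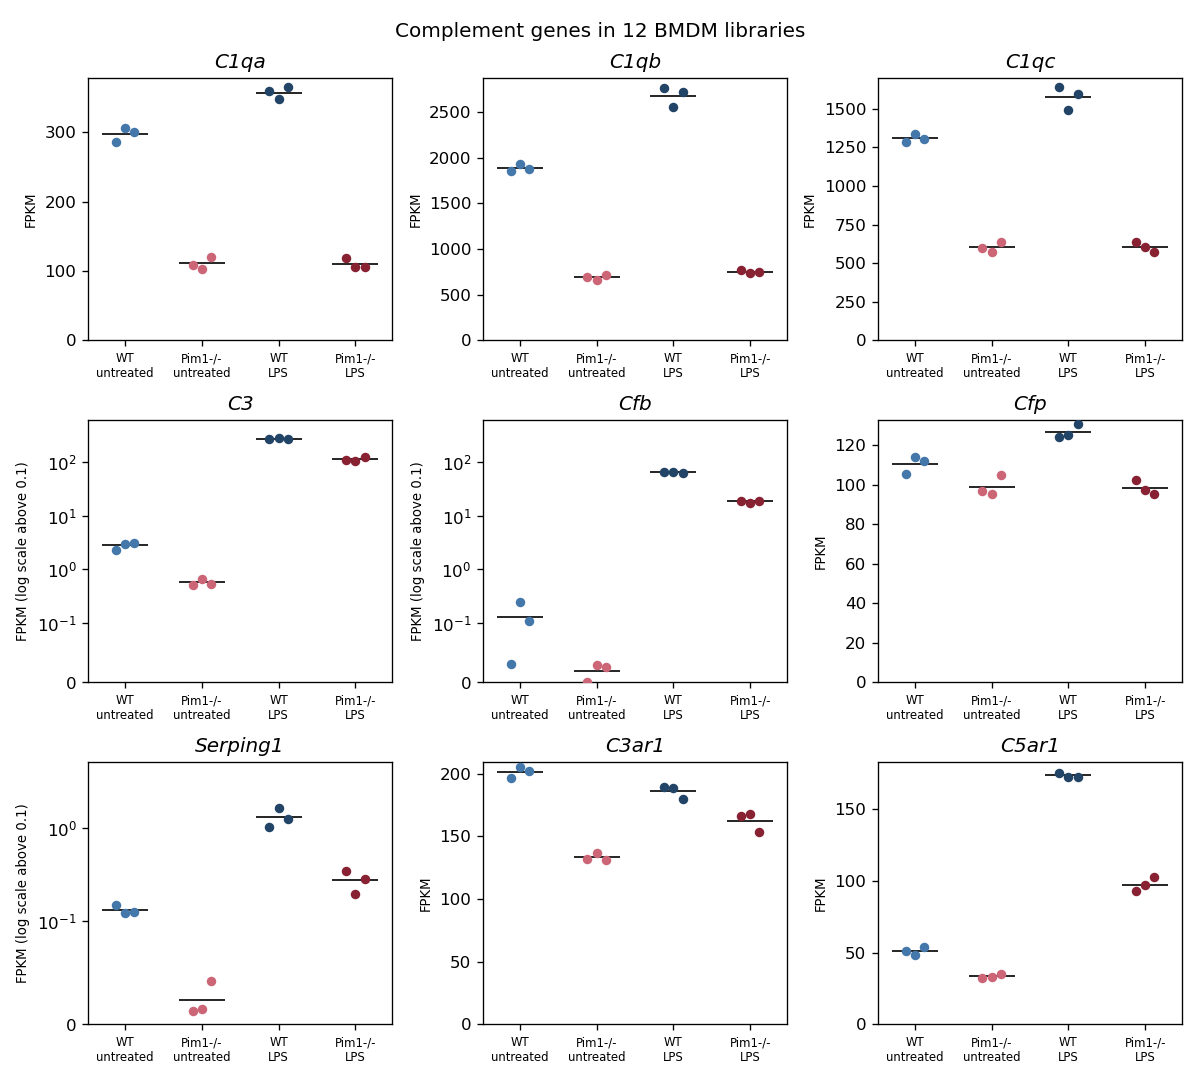
FPKM of the 9 complement genes in each of the 12 BMDM libraries (points, 3 per group) with the group mean (line), on a linear axis for 6 genes and on an axis that is linear up to 0.1 FPKM and logarithmic above for C3, Cfb and Serping1. In each panel the Pim1-/- points lie below the WT points of the same treatment, C1qb by the widest margin in FPKM (735.5 to 774 against 2557 to 2764 after LPS).

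LPS raised C3, Cfb and C5ar1 in both genotypes, by far the most for C3 and Cfb, and Serping1 passed the threshold in WT cells and, with 0.1 FPKM added in place of 1, in both genotypes. In WT cells 4 of the 9 genes were called higher and none lower, and in Pim1-/- cells 3 were called higher and none lower. Over all genes tested, 20.1% were called higher and 14.7% lower in WT, and 14.6% higher and 10.4% lower in Pim1-/- cells. The member counts are descriptions, because Cfb and Serping1 passed the filter on low values only through LPS-treated libraries. Both the LPS and the genotype comparisons draw on the same 4 groups and share libraries. The split of calls over all genes moved with the scaling: in WT cells it was 1556 lower and 2130 higher as deposited, 1853 and 1653 under quantile normalization and 4079 and 1236 with each library scaled to the same sum, and in Pim1-/- cells 1103 and 1546 as deposited and 3146 and 1026 scaled to the same sum. After LPS, the genotype comparison gave 545 lower and 371 higher as deposited and 377 and 610 scaled to the same sum. Scaling to the same sum moved the median log2 difference of all genes by LPS to -0.71 in WT and -0.62 in Pim1-/- cells, quantile normalization to -0.18 in each, and keeping only genes at 5 FPKM or more moved it to 0.17 in WT.

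C3 rose 97.2-fold in WT and 199.9-fold in Pim1-/- cells by the ratio of means, from 2.81 ± 0.43 to 273 ± 3.17 FPKM and from 0.569 ± 0.0768 to 114 ± 9.64 FPKM (SD, n = 3). On the log2(FPKM + 1) scale the rises were 6.18 and 6.19 (SE 0.075 each), and the difference between them was 0.01 (SE 0.11, FDR = 0.92) by limma. With 0.1 FPKM added in place of 1 that difference was 0.85, which is also not a call. The C3 level after LPS was lower in Pim1-/- cells in every library.

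Cfb passed the filter on low values only through LPS-treated libraries, so its rise with LPS is a description. Cfb rose by 5.86 in WT and by 4.25 in Pim1-/- cells on the log2(FPKM + 1) scale (SE 0.063 each). By the ratio of means the order was the opposite, 506-fold in WT and 988-fold in Pim1-/- cells, ratios that rest on 40 and 6 untreated fragments and on a Pim1-/- library at 0. On the log2(FPKM + 1) scale it was the only member whose response to LPS was called different between the genotypes, by -1.60 (SE 0.089, FDR = 8.6e-10), beside 4.43% of all genes called lower and 2.24% called higher in that comparison. With 0.1 FPKM added the difference was -0.96, short of 2-fold, and the untreated libraries held 0 to 25 Cfb fragments each, so no direction of the difference in response is read from Cfb, whereas the lower level after LPS was called with either added value. Over all genes, the split of calls in this comparison was 469 lower and 237 higher as deposited and 423 and 413 with each library scaled to the same sum.

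C5ar1 rose 3.39-fold in WT and 2.88-fold in Pim1-/- cells, by 1.74 and 1.499 on the log2 scale (SE 0.049 each), and the difference of the responses was -0.24 (SE 0.069, FDR = 0.0066), not a call, and was 0.13 under quantile normalization. The C5ar1 rise stayed positive but under 2-fold with the libraries scaled to the same sum (0.94 and 0.85) and under quantile normalization (0.77 and 0.90). Serping1 rose by 1.01 (SE 0.079) in WT cells and differed by 0.31 in Pim1-/- cells, with a difference of responses of -0.70 (SE 0.11), not a call. Serping1 passed the filter on low values only through the LPS-treated WT libraries, so these values are descriptions. By the ratio of means it rose 9.84-fold in WT and 11.6-fold in Pim1-/- cells, from 26 and 5 untreated fragments, and with 0.1 FPKM added the Pim1-/- difference was 1.58, a call. The WT value sat at the edge of the threshold and was 0.98 scaled to the same sum, and leaving out any 1 LPS-treated WT library removed Serping1 from the genes tested.

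For the remaining 5 genes the deposited values differed by less than 2-fold. In WT cells the log2 difference by LPS was 0.50 for C1qb, 0.26 for C1qa, 0.27 for C1qc, 0.20 for Cfp and -0.11 for C3ar1, none a call. In Pim1-/- cells it was 0.12 for C1qb, -0.01 for C1qa, 0.01 for C1qc, -0.01 for Cfp and 0.29 for C3ar1, and the LPS and untreated libraries overlapped for C1qa, C1qc and Cfp. No direction can be read for C1q and Cfp, because their estimates in WT cells were negative with each library scaled to the same sum (-0.31 to -0.61) and under quantile normalization (-0.49 to -0.97). C3ar1 in WT cells was negative in each scaling and reached a call, -1.35, under quantile normalization, while in Pim1-/- cells it turned to -0.38 and -0.56 under those scalings. The difference of responses was 0.40 for C3ar1 (SE 0.060, FDR = 3.7e-05) and between -0.38 and -0.21 for the C1q genes and Cfp, all short of 2-fold, and quantile normalization turned it positive for C1qa and Cfp (0.16 and 0.08).

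**Figure D3:**
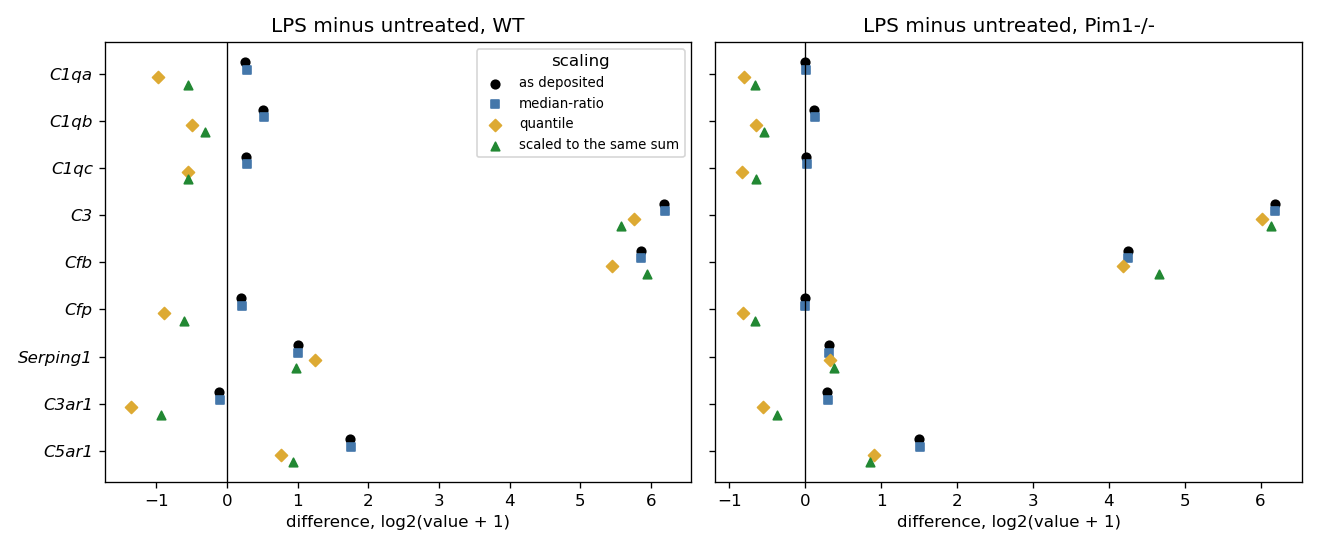
Log2 difference between LPS-treated and untreated BMDMs, on the log2(value + 1) scale, in WT (left) and Pim1-/- cells (right) for the 9 genes under the deposited scaling (circle), median-ratio scaling (square), quantile normalization (diamond) and scaling to the same sum (triangle). C3 and Cfb lie above 4 in every case, C5ar1 and Serping1 stay above 0, and the C1q genes and Cfp in WT cells lie on different sides of 0 by scaling.

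By the rule fixed for likeness, the genes nearest to the mean profile of the 3 C1q genes over the 12 libraries included Plxdc2 (root mean square difference 0.084 on the log2(FPKM + 1) scale) and Evl (0.089). Evl, which encodes a regulator of actin filaments, averaged 33.3 FPKM in untreated WT, 12.5 in untreated Pim1-/-, 45.3 in LPS-treated WT and 15.03 in LPS-treated Pim1-/- cells. Nearest to C3 were Marcksl1 (0.17), Tgtp2 (0.24) and Nfkbiz (0.25), which encodes an inducible regulator of NF-kappaB. Nearest to Cfb were Lcn2 (0.15), Slco3a1 (0.18) and Gpr84 (0.21). Lcn2, which encodes the secreted siderophore-binding protein lipocalin 2, averaged 67.3 FPKM in LPS-treated WT and 14.7 FPKM in LPS-treated Pim1-/- cells, beside 64.2 and 18.45 FPKM for Cfb. Lcn2 is also on the list of neutrophil markers, of which 9 of 10 are in the files, and their summed level was 72.9 to 76.4 FPKM in LPS-treated WT and 17.7 to 21.0 FPKM in LPS-treated Pim1-/- libraries, against 1.68 to 2.02 and 3.26 to 4.21 FPKM without treatment. Lcn2 made up most of that sum after LPS. S100a9 averaged 3.07 FPKM in LPS-treated WT and 0.776 FPKM in LPS-treated Pim1-/- cells and was called lower (-1.18), and S100a8 averaged 3.81 and 3.85 FPKM. Retnlg was at 0 in all libraries, and the group means of Camp, Mpo, Elane, Ltf and Ngp were at most 0.474, 0.01995, 0.0426, 0.0184 and 0.0638 FPKM. The part of neutrophils in the Cfb result was not tested.

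Stromal and liver cells are other known sources of C3, Cfb and Serping1. The summed level of 9 stromal markers was 6.65 to 7.86 FPKM in untreated WT, 2.31 to 3.11 in untreated Pim1-/-, 15.9 to 16.3 in LPS-treated WT and 4.68 to 5.67 in LPS-treated Pim1-/- libraries, with 4 of 9 at 1 FPKM or more in a library, and 4 of the 4 tested had lower estimates in Pim1-/- cells in both conditions. Most of the rise of this sum with LPS came from Pdgfrb, which averaged 0.1635 FPKM untreated and 7.10 FPKM after LPS in WT cells. In Pim1-/- cells Pdgfrb averaged 0.0718 and 2.16 FPKM. The stromal list was lower in Pim1-/- than in WT libraries in both conditions, as the 9 genes were, and its part in their results was not tested. Lower estimates were also held by 5866 of the 10581 genes tested without treatment and by 5581 after LPS. Of 5 hepatocyte markers, 3 were at 0 in all libraries, and the sum of the list was 0 in every untreated and every LPS-treated Pim1-/- library and at most 0.0596 FPKM in LPS-treated WT libraries.

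Beyond the 9 genes, a list of 52 other complement genes was read from the same fit. Of these, 36 stayed under 1 FPKM in all libraries, among them 15 listed at 0 throughout, and 15 passed the filter and were tested. Those at 0 included Cfd, the protease factor D, the mannose-binding lectins Mbl1 and Mbl2, the regulator Cfi, and C6 and C7 of the membrane attack complex, examples picked after their values were seen. The median log2 genotype difference of the 15 tested genes was -0.26 without treatment and -0.14 after LPS, with 1 called lower and none higher in each. Of all genes tested, 3.37% and 5.15% were called lower, and 1 call among 15 genes cannot be set apart from these shares. The called genes were Colec12, a scavenger receptor of the collectin group, at -1.08 without treatment, and C1ra, a protease of the C1 complex, at -1.13 after LPS. C1ra held 6.33, 6.925 and 7.115 FPKM in LPS-treated WT and 2.42, 2.46 and 2.77 FPKM in LPS-treated Pim1-/- libraries, and rose with LPS by 1.94 in WT and by 1.07 in Pim1-/- cells.

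Other receptors and regulators of the list had estimates in both directions, none called between the genotypes on the log2(FPKM + 1) scale. Itgam, the alpha chain of complement receptor 3, differed by -0.68 (untreated) and -0.90 (LPS), with group means of 81.0 FPKM in WT against 50.2 in Pim1-/- cells and of 105 against 55.6 after LPS, while its partner chain Itgb2 differed by -0.13 and 0.06. Calr, calreticulin, which binds C1q at the cell surface, differed by -0.29 and -0.70. C1qbp, the mitochondrial protein named for binding C1q, differed by 0.37 and 0.70, Cr1l, a regulator of C3 convertases, by 0.28 and 0.19, and Cd59a, an inhibitor of the membrane attack complex singled out after its values were seen, by 0.96 and 0.86. Cd93 differed by -0.39 and 0.27 and Lrp1, an uptake receptor, by -0.11 and 0.42. By the deposited values, Thbd, thrombomodulin, fell with LPS in both genotypes (-1.63 and -1.64). Cd93 differed with LPS by -1.38 in WT cells, a call, and by -0.72 in Pim1-/- cells, not a call. Cr1l differed with LPS by 1.08 in WT cells, a call, and by 0.99 in Pim1-/- cells, just short of 2-fold. No gene of the list had a called difference in its response to LPS.

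**Figure D4:**
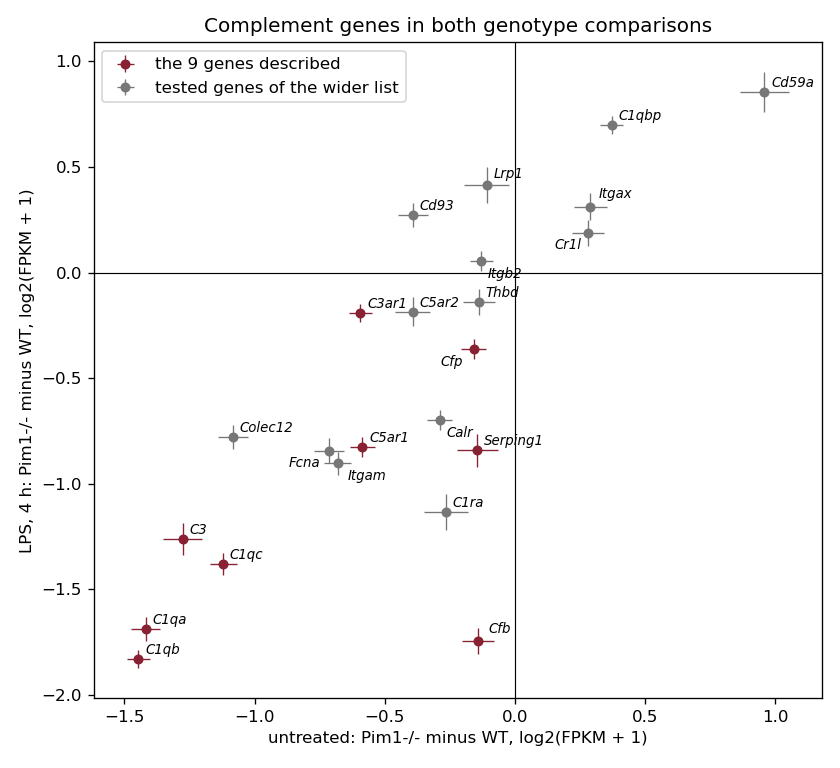
Log2 difference between Pim1-/- and WT BMDMs on the log2(FPKM + 1) scale, untreated (horizontal) against LPS-treated (vertical), for the 9 complement genes (red) and tested genes of the wider list (grey), with bars of 1 standard error. The 9 genes lie at or below 0 on both axes, Cfb apart from the others with -0.14 and -1.75, and the wider list lies on both sides of 0, from Colec12 at -1.08 to Cd59a at 0.96 without treatment. The place of Cfb rests on the added 1 FPKM, as its untreated value was -0.83 with 0.1 FPKM added.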

How the data were processed

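RNA from WT and Pim1-/- BMDMs was sequenced by the authors as stranded mRNA libraries. Per the labels, the authors used bcl2fastq 2.20.0.422, cutadapt 1.18, TopHat2 2.0.13 and Cuffdiff 2.2.1 with the mm10 genome, whereas the methods name a rat genome, and the gene symbols are those of mouse. The authors deposited 1 column of FPKM values per library, a unit not written in the files and read here from the use of Cuffdiff and from the values; the library normalization is not given in the sources used here. FPKM holds no counts, so no counting intervals were computed. Among 11369 low values of 1226 genes, 81.0% equalled a whole number of steps of 1 fragment to within 0.05 of a step. The fragments quoted for Cfb and Serping1 are the smallest whole numbers that match their values within 0.15, an estimate that gene isoforms could shift. The values were taken as deposited, 1 FPKM was added and log2 values were fitted with limma 3.58.1 (R 4.3.3, trend) as 4 group means over the 10581 genes that reached 1 FPKM in 3 or more libraries, with Benjamini-Hochberg adjustment over all of them. The 2-fold, p under 0.05 and FDR under 0.1 thresholds follow the methods and were applied in both directions. A fold on this scale understates the change of low genes. Alternatives were a pseudocount of 0.1, other filters, 3 other scalings, a replicate block, only the groups compared, no trend, no fold threshold and leaving out each library. The 9 genes, the wider complement list, the marker lists and the tests were chosen with earlier results of these data known. Named genes were the 9 members, Pim1, genes of the wider list that were called in a comparison or averaged at least 10 FPKM in a group, the 3 genes with the nearest profile to C1q, C3 and Cfb, and markers at 10 FPKM or that define a cell type; some genes that this rule names are not reported here. Positions are from GENCODE M21 on GRCm38. Promoters are from RefSeq on GRCm38.p6, where 6 of the 9 genes had an entry; C1qa, Cfb and Serping1 are named only. Tables and plots were made in matplotlib 3.10.9 and pandas 2.3.3 on numpy 2.4.6 under Python 3.11.15.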

Additional observations from a re-analysis of the deposited data

Results flagged for a closer look

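The response of Cfb to LPS in Pim1-/- minus that in WT cells was -1.60 on the log2(FPKM + 1) scale, and the interaction term of limma put this difference between the genotypes past the threshold. All 3 LPS-treated Pim1-/- libraries (17.4 to 19.1 FPKM) lay below all 3 LPS-treated WT libraries (63.3 to 65.0 FPKM), while the untreated libraries of both genotypes lay between 0 and 0.242 FPKM. Leaving out each library in turn gave -1.68 to -1.54, but with 0.1 FPKM added in place of 1 the difference was -0.96 and not a call, and by the ratio of means the rise was larger in Pim1-/- (988-fold) than in WT cells (506-fold), from 6 and 40 untreated fragments.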

How the results depend on the processing

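The lower C1qa, C1qb, C1qc and C3 of Pim1-/- cells and the lower Cfb after LPS kept their direction under every alternative run, and the C1q and Cfb calls after LPS and the C1q and C3 calls without treatment kept their side of the threshold. C3 after LPS fell short of 2-fold under quantile normalization (-0.96). Apart from leaving out libraries, 359 of the members' log2 differences kept direction and side, 21 turned direction, 7 lost and 4 gained a call, and the causes were not tested. With 0.1 FPKM added, 1442 genes were called between genotypes after LPS, and in the difference of responses 1075 genes and 0 of the 9 members, where Cfb was at -0.96. With FDR under 0.05 and no fold threshold, the genes called were 7904 (genotypes, untreated), 8194 (genotypes, LPS), 9453 (LPS, WT), 8954 (LPS, Pim1-/-) and 6657 (difference of responses), and the members 7, 9, 9, 6 and 8. Scaling to the same sum gave 2 members called by LPS in each genotype, beside 5315 genes called in WT and 4172 in Pim1-/- cells. It turned C3ar1 between genotypes after LPS to 0.011, the LPS difference in WT to -0.55 for C1qa, -0.31 for C1qb, -0.55 for C1qc and -0.61 for Cfp, and in Pim1-/- cells to -0.54 for C1qb, -0.66 for C1qc and -0.38 for C3ar1; it moved the median of all genes in the genotype comparison after LPS to 0.13 and in the difference of responses to 0.12. Quantile normalization turned C3ar1 between genotypes after LPS to 0.063, the LPS difference in WT to -0.97 for C1qa, -0.49 for C1qb, -0.55 for C1qc and -0.90 for Cfp, in Pim1-/- cells to -0.65 for C1qb, -0.84 for C1qc and -0.56 for C3ar1, and the difference of responses to 0.16 for C1qa, 0.080 for Cfp and 0.13 for C5ar1. Median-ratio scaling turned the LPS difference in Pim1-/- cells to 0.0047 for C1qa and 0.0027 for Cfp. Leaving out each library in turn gave 740 to 824, 887 to 1002, 3623 to 3686, 2585 to 2664 and 655 to 721 genes called in the 5 comparisons in the order above, and 4, 5, 3 to 4, 3 and 1 members, with the spread pooled over the groups. It turned the direction of values near 0: the C3 difference of responses ran from -0.051 to 0.11, and the LPS difference in Pim1-/- cells from -0.059 to 0.051 for C1qa, from -0.031 to 0.048 for C1qc and from -0.038 to 0.032 for Cfp. A 5 FPKM filter left Serping1 untested. Groups share replicate numbers, and the deviations of same-numbered libraries correlated at over 0.1 in 5 of 12 library-comparison pairs (-0.07 to 0.45 over 5410 genes). In 9 of these 12 the library correlated best with its own number in the other group. The main fit left the numbers out, and whether they mark a shared source or batch was not tested. With the replicate block 358 and 466 genes were called lower and higher without treatment and 544 and 371 after LPS, and no member gained or lost a call. Depth limits Cfb and Serping1 in untreated cells, at 0 to 25 and 1 to 9 fragments per library.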

Other observations

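Apart from neutrophil markers, the lists for other blood cells were low in all 4 groups. The summed level of 8 dendritic cell markers was at most 2.84 FPKM in any library, that of 6 B cell markers at most 1.59 FPKM, that of 6 mast cell and basophil markers at most 0.186 FPKM and that of 6 erythroid markers at most 0.115 FPKM. The list of 7 T and NK cell markers summed to 4.83 to 5.40 FPKM in untreated WT and to 0.668 to 0.698 FPKM in untreated Pim1-/- libraries, and 1 of its genes, Cd4, which some macrophages also carry, was the only one that passed the filter, with log2 differences of -2.06 without treatment and -1.44 after LPS, both calls.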
